A study of Homo sapiens with 24 samples.

Results

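The death-inducing signalling complex is the assembly that forms on a death receptor once its ligand has bound, and the genes described here encode its parts and the proteins that lead from it to other outcomes. They are CFLAR, CASP8, CASP10, FADD, RIPK1, RIPK3, TRADD, TRAF2 and CYLD, 9 genes that were chosen by name. No measured value entered the rule, but earlier results of these data were known when the genes were chosen. On the arrays they were measured by 18 of 50599 probes, namely every probe that is not a control and that carries one of the 9 gene names. Expression was measured in HT29, an established cell line from a human adenocarcinoma of the colon, with 4 arrays in each of 6 groups. The groups were untreated cells (NT), cells given C3/C2 (propionate at 30 mM together with acetate at 15 mM), SN (culture supernatant of propionibacteria, diluted to 1/2) or TRAIL (100 ng/ml, given with 2 µg/ml of the anti-Flag M2 antibody), and cells given TRAIL+C3/C2 or TRAIL+SN. Treatments lasted 6 h and all groups came from the same cell line, so that no difference between genotypes enters the comparisons. SN contains propionate and acetate, and C3/C2 supplies these acids without the rest of the supernatant. The comparisons ask how each agent, alone and with TRAIL, changed the transcripts of the complex.

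TRAIL is a ligand of the tumour necrosis factor family that kills many tumour cells. Its receptors recruit the adaptor FADD through death domains, FADD recruits procaspase-8 and procaspase-10 through death effector domains, and caspase-8 that is brought together in this way cleaves itself and goes on to cleave executioner caspases. CFLAR encodes cellular FLIP, which carries the same death effector domains and takes the place of the caspase. Its short forms block the complex, and its long form has a caspase-like domain without catalytic activity and is best known in colon carcinoma cells as a brake on killing by TRAIL. TRADD, RIPK1, TRAF2 and the deubiquitinase CYLD act around the same platform in signalling to NF-kB, and RIPK3 is the kinase of necroptosis, which caspase-8 holds in check.

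The probes are 60 bases long, and since a change is read here from probe to probe, those that lie in the coding sequence of the death effector domains or of the caspase-like domain are shown as the arrays carry them, 5′ to 3′ and on the strand of the transcript (hg19 coordinates of the files, forward strand of chromosome 2).
CFLAR-a, chr2:202000731-202000790, in the second death effector domain: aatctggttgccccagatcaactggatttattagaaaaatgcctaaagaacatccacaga
CFLAR-b, chr2:202025198-202025257, in the caspase-like domain of the long form: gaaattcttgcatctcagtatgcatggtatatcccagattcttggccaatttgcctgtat
CASP8-a, chr2:202136256-202136315, in the death effector domains: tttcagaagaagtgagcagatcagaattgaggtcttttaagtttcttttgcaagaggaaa
CASP10-a, chr2:202057711-202057770, in the death effector domains: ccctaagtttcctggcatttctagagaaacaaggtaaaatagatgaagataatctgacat
Probes of one gene are lettered here in the order of their hg19 start. CFLAR, CASP10 and CASP8 lie next to each other on chromosome 2. CFLAR-c (chr2:202030660-202030717) and CFLAR-d (chr2:202031892-202031951) follow CFLAR-b by 5462 and 6694 bp. Their starts are 1232 bases apart both on the genome and along the transcript, so no intron separates them, and the transcripts that the files list for CFLAR-b, CFLAR-c and CFLAR-d include the reference transcript of the long form. CASP10-b (chr2:202084646-202084705) and CASP10-c (chr2:202086244-202086303) are likewise 1598 bases apart on the genome and along the transcript and carry the same list of transcripts. CASP10-d (chr2:202094051-202094110) belongs to the transcripts that hold CASP10-a and that end further downstream. CASP8-b lies at chr2:202151838-202151897, FADD at chr11:70053305-70053364, RIPK1 at chr6:3115338-3115397, TRADD at chr16:67188192-67188251 and CYLD at chr16:50835733-50835792. RIPK3-a and RIPK3-b lie at chr14:24806524-24806583 and chr14:24808383-24808442, and TRAF2-a and TRAF2-b at chr9:139794064-139794123 and chr9:139820997-139821056. The files list at most 4 transcripts for each probe, and exons and untranslated regions were not annotated here.

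Levels are log2 intensities relative to the 75th percentile of the same array, and they compare one probe between samples, never one probe with another. Of the 18 probes, 17 were well above background on all 24 arrays, and CASP10-d was well above background on 0 of 24 and was not tested. The 75th percentile of an array lay at an intensity of 453 to 1009, lowest in the co-treatments, and between 49.8% and 57.8% of all probes were well above background. The arrays lay on 4 slides. NT and C3/C2 shared slides 1 and 2, SN and TRAIL filled slide 3 and both co-treatments slide 4, so that except for C3/C2 the slide and the treatment cannot be told apart in a comparison with NT. All 12 markers of colon epithelium were well above background on all 24 arrays, and of the markers of other cells COL1A2, COL3A1, DCN and KDR were so on 0 arrays, whereas 3 of the 5 immune markers with a probe (PTPRC, CD14 and CD68) and 3 of 4 endothelial markers (PECAM1, VWF and CDH5) were so on all 24, and their part in the results was not tested. The study's methods give the 4 arrays of a group as duplicates of 2 independent experiments, but the labels do not say which arrays belong together. All tests treat the 4 as separate samples, so p-values, the exact ones included, measure the spread between these samples, which may be technical, and in bulk RNA fewer cells with a transcript and less of it per cell cannot be told apart.

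Against NT, CFLAR fell 2-fold or more at 1 or more of its probes with C3/C2, with SN and with both co-treatments. With TRAIL+SN it did so at CFLAR-b alone (2.2-fold), beside 1.62-fold for CFLAR-a and 1.91-fold for CFLAR-d. CFLAR-c rose 1.45-fold there, a rise about as large as the shift that spike-in scaling gave all probes of that group. CASP8 fell 2-fold or more at CASP8-b with C3/C2, SN and TRAIL+C3/C2, and at CASP8-a with SN alone. With TRAIL+SN, CASP8-b fell 1.86-fold and CASP8-a 1.40-fold. No probe of the 9 genes rose or fell 2-fold with TRAIL alone. Calls required at least a 2-fold change and, in limma, a p under 0.05 after adjustment over 27953 probes. With C3/C2, 0 of 17 probes were called higher and 4 lower, in CFLAR and CASP8 (13.3% and 6.22% of all probes tested were called higher and lower). With SN, 0 were called higher and 5 lower, in CFLAR, CASP8 and CASP10 (14.1% and 9.69% of all probes). With TRAIL, 0 were called in either direction (0.723% of all probes higher and 2.11% lower). With TRAIL+C3/C2, 0 were called higher and 4 lower, in CFLAR and CASP8 (16.4% and 8.12% of all probes), and with TRAIL+SN 1 was called higher, in CASP10, and 3 lower, in CFLAR, CASP10 and FADD (16.1% and 10.2%). The 5 treatments share the NT arrays. With no minimum fold, 14 of the 17 probes passed the adjusted p for C3/C2, 11 for SN and 6 for TRAIL, and 15 and 14 for TRAIL+C3/C2 and TRAIL+SN, where 63.2%, 69%, 31.5%, 69.6% and 70.3% of all probes did. For TRAIL, 9 of 17 probes had an unadjusted p under 0.05 in the limma fit and 7 of 17 in the exact permutation test. Shares of all probes at these unadjusted thresholds were not computed. The median log2 change of the 17 probes was -0.21 for C3/C2, -0.14 for SN and 0.21 for TRAIL, and 0.01 and 0.03 for TRAIL+C3/C2 and TRAIL+SN, beside 0.07, -0.01, 0.04, 0.10 and 0.05 over all probes tested.

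**Figure D1:**
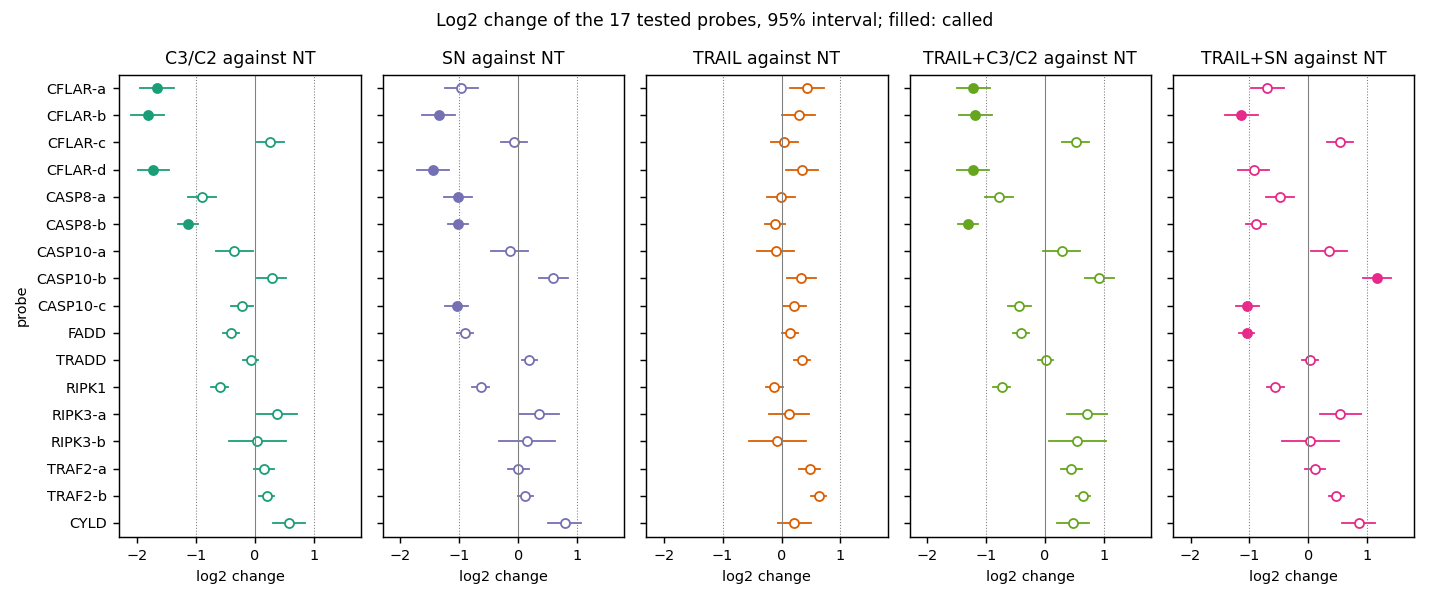
Log2 change against NT (horizontal axis) of the 17 tested probes (vertical axis) in the 5 treatments, as the estimate of the limma fit with its 95% interval, n = 4 arrays a group. Filled points were called, and dotted lines mark log2 changes of -1 and 1. Filled points sit to the left at CFLAR-a, CFLAR-b, CFLAR-d and CASP8, while CFLAR-c lies at 0.26 with C3/C2 and 0.52 with TRAIL+C3/C2.

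CFLAR, the inhibitor of the complex, fell at 3 of its 4 probes, and of the 17 probes tested one of these 3 had the largest fall with C3/C2, with SN and with TRAIL+SN (with TRAIL+C3/C2 it was CASP8-b). For CFLAR-a, in the death effector domain that long and short forms share, the levels were 1.18, 1.15, 1.00 and 0.92 on the 4 NT arrays and -0.38, -0.46, -0.67 and -0.89 with C3/C2. With SN they were 0.35, 0.31, -0.08 and -0.18, and with TRAIL 1.62, 1.64, 1.36 and 1.38. They were -0.07, 0.09, -0.26 and -0.37 with TRAIL+C3/C2 and 0.55, 0.50, 0.20 and 0.22 with TRAIL+SN. Every array with C3/C2, SN or a co-treatment lay below every NT array, and every TRAIL array lay above. CFLAR-a thus fell 3.17-fold with C3/C2, a log2 change of -1.66 (SE 0.14, adjusted p = 8.69e-10), and 2.32-fold with TRAIL+C3/C2, a log2 change of -1.22 (SE 0.14, adjusted p = 8.75e-08). With SN and TRAIL+SN its log2 changes were -0.96 (SE 0.14, adjusted p = 2.30e-06) and -0.70 (SE 0.14, adjusted p = 1.18e-04), short of 2-fold, and with TRAIL it was 0.44 (SE 0.14, adjusted p = 0.0191), which became 0.16 (adjusted p = 0.564) with spike-in scaling.

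CFLAR-b, in the caspase-like domain that only the long form has, moved in the same way. Its levels were -0.41, -0.69, -0.96 and -0.71 in NT, -2.27, -2.48, -2.66 and -2.65 with C3/C2 and -1.92, -1.94, -2.23 and -2.08 with SN. They were -0.34, -0.33, -0.52 and -0.44 with TRAIL, -1.96, -2.04, -1.87 and -1.65 with TRAIL+C3/C2 and -1.59, -1.59, -2.03 and -2.13 with TRAIL+SN. TRAIL and NT arrays overlapped, and all other groups lay below both. CFLAR-b fell 3.53-fold with C3/C2, a log2 change of -1.82 (SE 0.13, adjusted p = 1.27e-10), and 2.55-fold with SN, a log2 change of -1.35 (SE 0.13, adjusted p = 1.11e-08). It fell 2.27-fold with TRAIL+C3/C2 and 2.2-fold with TRAIL+SN, with log2 changes of -1.18 (SE 0.13, adjusted p = 8.07e-08) and -1.14 (SE 0.13, adjusted p = 1.30e-07).

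CFLAR-d, further along the same transcripts, followed both. Its levels were -1.22, -1.07, -1.33 and -1.17 in NT, -2.69, -2.71, -3.23 and -3.05 with C3/C2 and -2.44, -2.56, -2.87 and -2.71 with SN. They were -0.78, -0.98, -0.94 and -0.70 with TRAIL, -2.15, -2.27, -2.60 and -2.66 with TRAIL+C3/C2 and -2.19, -1.96, -2.16 and -2.20 with TRAIL+SN. TRAIL lay above NT on every array, and the other groups below. CFLAR-d fell 3.29-fold after C3/C2, 2.73-fold after SN and 2.33-fold with TRAIL+C3/C2, with log2 changes of -1.72 (SE 0.13, adjusted p = 1.96e-10), -1.45 (SE 0.13, adjusted p = 2.41e-09) and -1.22 (SE 0.13, adjusted p = 3.30e-08). With TRAIL+SN its log2 change was -0.93 (SE 0.13, adjusted p = 1.51e-06), and with TRAIL 0.35 (SE 0.13, adjusted p = 0.0455), which became 0.07 (adjusted p = 0.803) with spike-in scaling. Over the 24 arrays, which are not independent of the groups, the levels of CFLAR-a, CFLAR-b and CFLAR-d had Pearson correlations of 0.95, 0.96 and 0.96 with each other.

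In the order of their mean levels, all 3 probes ran from TRAIL, highest, through NT and TRAIL+SN down to C3/C2, lowest. NT and TRAIL+SN did not overlap for any of the 3. Of the groups below NT, TRAIL+SN and the group next to it overlapped for each probe (exact permutation p = 0.171 for CFLAR-a against SN, 0.857 for CFLAR-b and 0.114 for CFLAR-d against TRAIL+C3/C2), while C3/C2 lay apart from its neighbour for CFLAR-a and CFLAR-b and overlapped SN for CFLAR-d. With 4 arrays against 4 the smallest p of this test is 0.0286. Within slide 2 alone, where 3 C3/C2 arrays stood beside 3 NT arrays, the log2 changes with C3/C2 were -1.70 for CFLAR-a, -1.81 for CFLAR-b and -1.81 for CFLAR-d, and on slide 1, with 1 array each, -1.56, -1.85 and -1.46. With normexp background correction, the falls of CFLAR-b and CFLAR-d with TRAIL+C3/C2 and of CFLAR-b with TRAIL+SN were under 2-fold (log2 changes of -0.89, -0.73 and -0.88).

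**Figure D2:**
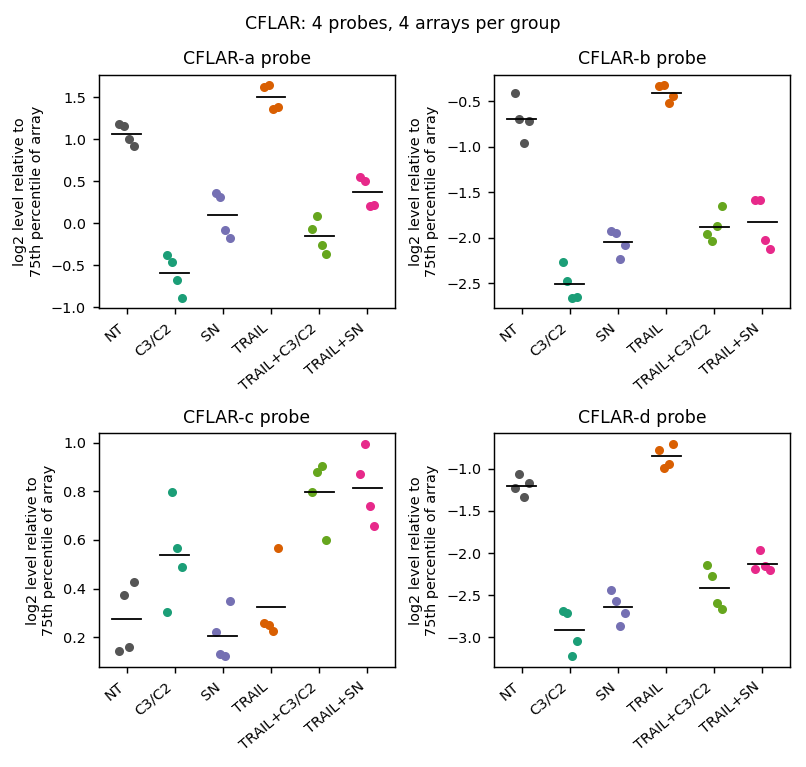
Level of each CFLAR probe (vertical axis, log2 intensity minus that of the array's 75th percentile) in the 6 groups, with 1 point an array and a bar at the mean of 4 arrays. For CFLAR-a, CFLAR-b and CFLAR-d the points of C3/C2, SN and both co-treatments lie below those of NT, whereas CFLAR-c, on an axis with a narrower range, has its lowest points in NT and SN.

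CFLAR-c did not follow the other probes of its gene. Its levels were 0.14, 0.37, 0.16 and 0.43 in NT, 0.30, 0.80, 0.57 and 0.49 with C3/C2 and 0.22, 0.13, 0.12 and 0.35 with SN. They were 0.26, 0.25, 0.22 and 0.57 with TRAIL, 0.80, 0.88, 0.90 and 0.60 with TRAIL+C3/C2 and 0.87, 0.99, 0.74 and 0.66 with TRAIL+SN. Both co-treatments lay above every NT array, and the other groups overlapped NT. Its log2 changes were 0.26 (SE 0.11, adjusted p = 0.0383) with C3/C2, -0.07 (SE 0.11, adjusted p = 0.578) with SN and 0.05 (SE 0.11, adjusted p = 0.772) with TRAIL. With TRAIL+C3/C2 and TRAIL+SN they were 0.52 (SE 0.11, adjusted p = 2.14e-04) and 0.54 (SE 0.11, adjusted p = 1.37e-04), under 2-fold. The sign of its change turned with the array median as scaling for C3/C2 (-0.04) and with spike-in scaling for TRAIL+C3/C2 (-0.19). With TRAIL+SN, spike-in scaling moved all probes by -0.52, nearly the whole of the 0.54 of CFLAR-c. The difference between a probe's log2 change and the mean change of the other probes of its gene, which no scaling of an array can alter, was tested with limma's diffSplice over 12442 probes. For CFLAR-c it was 2.00 (SE 0.15, adjusted p = 6.45e-19) with C3/C2 and 1.18 (SE 0.15, adjusted p = 4.65e-10) with SN. With the co-treatments it was 1.73 (SE 0.15, adjusted p = 2.58e-16) for TRAIL+C3/C2 and 1.46 (SE 0.15, adjusted p = 2.42e-13) for TRAIL+SN, and with TRAIL alone -0.31 (SE 0.15, adjusted p = 0.158). Called at a log2 difference of 1 or more with an adjusted p under 0.05, such differences were found at 1 member probe for C3/C2 (7.92% of all probes of names with more than 1 probe), 3 for SN (10.3%) and 0 for TRAIL (2.84%) out of 13 tested, while TRAIL+C3/C2 gave 2 (12.2%) and TRAIL+SN gave 3 (11.9%). In every case they were CFLAR-c or a CASP10 probe. For TRAIL, limma gave CASP10-a and CFLAR-c an unadjusted p under 0.05, and the exact permutation test CASP10-a and CASP10-b.

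On one array, the level of CFLAR-c minus that of its neighbour CFLAR-d, set to a mean of 0 in NT, was 1.52, 2.03, 2.32 and 2.06 with C3/C2 and 1.19, 1.22, 1.51 and 1.59 with SN. It was 1.47, 1.68, 2.03 and 1.79 with TRAIL+C3/C2 and 1.59, 1.48, 1.42 and 1.39 with TRAIL+SN. In NT it stayed between -0.11 and 0.12, so that no array of these treatments overlapped NT. With TRAIL it was -0.44, -0.24, -0.31 and -0.20, below every NT array (exact permutation p = 0.0286 for each treatment, two-sided). The same arrays gave the diffSplice differences above, so this is no independent check of them.

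The sequence of CFLAR-c also set it apart, since stretches of it are held, on the same strand or as reverse complement, by probes of 3 other genes. Among 50599 probes, CFLAR-c shared bases 1 to 34 on the same strand with the probe of METTL21A (chr2:208476371-208476430). It shared bases 29 to 60 as reverse complement with the probe of BBS5 (chr2:170362885-170362944) and bases 1 to 22 as reverse complement with that of FLJ45671 (chr14:51422995-51423054). No other member probe shared a run of over 17 bases with any probe of the array, on either strand. On the genome the files place the 60 bases of CFLAR-c on a span of 58 bases, where all other member probes span 60. The METTL21A probe had log2 changes of 0.19 (SE 0.11, adjusted p = 0.136) with C3/C2, 0.27 (SE 0.11, adjusted p = 0.0319) with TRAIL+C3/C2 and 0.21 (SE 0.11, adjusted p = 0.0932) with TRAIL+SN. With SN and TRAIL they were -0.73 (SE 0.11, adjusted p = 4.59e-06) and -0.37 (SE 0.11, adjusted p = 0.013). The BBS5 probe, which reads the opposite strand, had log2 changes of 0.51 (SE 0.08), 0.39 (SE 0.08), 0.30 (SE 0.08), 0.81 (SE 0.08) and 0.85 (SE 0.08) in the order C3/C2, SN and TRAIL, then TRAIL+C3/C2 and TRAIL+SN. For the FLJ45671 probe they were 0.46 (SE 0.10), -0.02 (SE 0.10), -0.18 (SE 0.10), 0.03 (SE 0.10) and 0.11 (SE 0.10). Over the 24 arrays the level of CFLAR-c had a Pearson correlation of 0.79 with that of the METTL21A probe, 0.88 with BBS5 and 0.49 with FLJ45671, and of -0.38, -0.37 and -0.27 with CFLAR-a, CFLAR-b and CFLAR-d. These points share groups and slides, and how much of the signal of CFLAR-c came from transcripts of other genes was not tested. With CFLAR-c left out, the numbers of member probes that differed from the other probes of their gene were 0 for C3/C2, 2 for SN and, of the co-treatments, 1 when C3/C2 and 2 when SN was added to TRAIL.

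**Figure D3:**
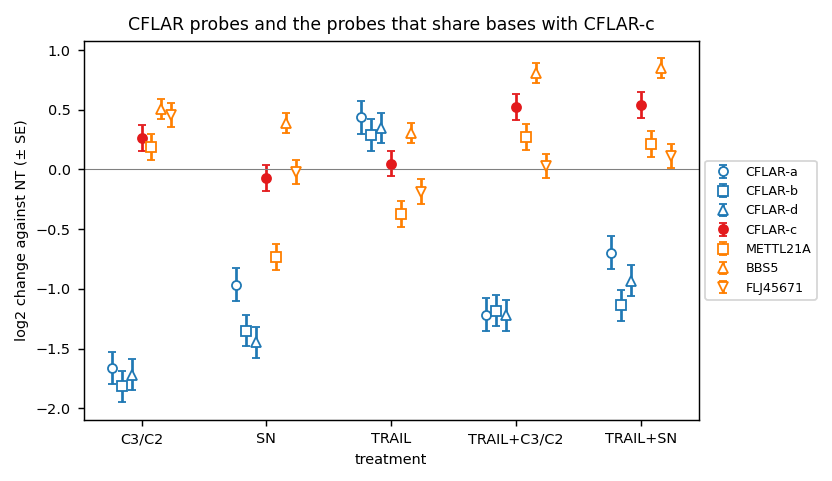
Log2 change against NT (vertical axis, limma estimate with its standard error) in the 5 treatments for CFLAR-c (filled), for the other CFLAR probes and for the probes of METTL21A, BBS5 and FLJ45671 that share bases with CFLAR-c. The METTL21A probe shares them on the same strand, those of BBS5 and FLJ45671 as reverse complement. In C3/C2 and both co-treatments CFLAR-c lies among the last group and away from CFLAR-a, CFLAR-b and CFLAR-d.

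**Figure D4:**
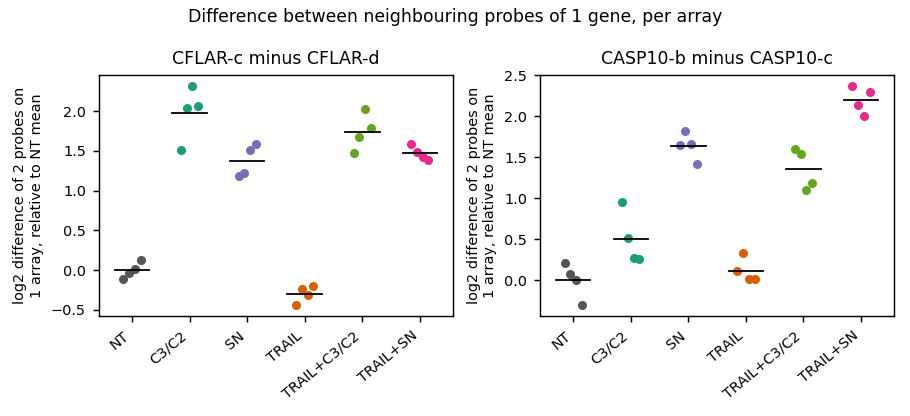
Level of CFLAR-c minus CFLAR-d (left) and of CASP10-b minus CASP10-c (right) on each array, relative to the mean difference in NT (vertical axis, log2), with 1 point an array and a bar at the group mean. For CFLAR the 4 groups with C3/C2 or SN lie between 1.19 and 2.32, and for CASP10 the largest differences are those of TRAIL+SN, 2.00 to 2.37.

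CASP8, the initiator caspase of the complex, fell 2-fold or more at CASP8-b with C3/C2, SN and TRAIL+C3/C2, and at CASP8-a with SN alone. Both probes fell less than 2-fold with TRAIL+SN. For CASP8-b the levels were -0.06, 0.05, 0.12 and -0.04 in NT, -1.13, -0.97, -1.12 and -1.25 with C3/C2 and -0.94, -0.98, -1.11 and -0.97 with SN. They were -0.05, -0.04, -0.16 and -0.11 with TRAIL, -1.21, -1.16, -1.44 and -1.35 with TRAIL+C3/C2 and -0.73, -0.75, -0.92 and -1.11 with TRAIL+SN. NT and TRAIL overlapped, and all arrays of the other 4 groups lay below them. CASP8-b fell 2.2-fold after C3/C2, 2.02-fold after SN and 2.47-fold with TRAIL+C3/C2, with log2 changes of -1.14 (SE 0.08, adjusted p = 1.06e-10), -1.02 (SE 0.08, adjusted p = 4.97e-10) and -1.31 (SE 0.08, adjusted p = 8.87e-12). With TRAIL+SN its change was -0.89 (SE 0.08, adjusted p = 3.37e-09), short of 2-fold, and with TRAIL -0.11 (SE 0.08, adjusted p = 0.341).

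The other CASP8 probe, in the death effector domains shown above, gave levels of -2.89, -2.68, -2.89 and -2.89 in NT, -3.80, -3.48, -3.76 and -3.88 with C3/C2 and -3.99, -3.47, -3.98 and -4.03 with SN. They were -2.74, -2.96, -2.88 and -2.82 with TRAIL, -3.50, -3.75, -3.73 and -3.48 with TRAIL+C3/C2 and -3.15, -3.24, -3.46 and -3.44 with TRAIL+SN. The order of the groups was that of CASP8-b except at its lower end, where SN was lowest for CASP8-a and TRAIL+C3/C2 for CASP8-b. CASP8-a fell 2.04-fold with SN, a log2 change of -1.03 (SE 0.11, adjusted p = 7.58e-08), and had log2 changes of -0.89 (SE 0.11, adjusted p = 7.15e-07) with C3/C2, -0.78 (SE 0.11, adjusted p = 3.91e-06) with TRAIL+C3/C2 and -0.48 (SE 0.11, adjusted p = 7.65e-04) with TRAIL+SN. Its log2 change was 0.53 above that of CASP8-b with TRAIL+C3/C2 (diffSplice, SE 0.14, adjusted p = 0.00224) and 0.41 above it with TRAIL+SN (adjusted p = 0.0171). The levels of both probes had a Pearson correlation of 0.88 over the 24 arrays. Both falls with SN lay close to the threshold, and neither was 2-fold with spike-in scaling (-0.96 and -0.95) or with normexp (-0.51 and -0.91).

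CASP10, which codes for the other initiator caspase of the complex, gave opposite changes at neighbouring probes. The levels of CASP10-b were -0.62, -0.69, -0.87 and -0.89 in NT, -0.29, -0.41, -0.60 and -0.61 with C3/C2 and -0.08, -0.11, -0.12 and -0.38 with SN. They were -0.45, -0.31, -0.48 and -0.49 with TRAIL, 0.37, 0.41, -0.09 and -0.07 with TRAIL+C3/C2 and 0.52, 0.57, 0.25 and 0.25 with TRAIL+SN. Every treated array lay above every NT array. CASP10-b rose 2.24-fold with TRAIL+SN, a log2 change of 1.17 (SE 0.12, adjusted p = 1.40e-08), and was under 2-fold with the array median (0.97) or spike-in probes (0.64) as scaling. Its log2 changes were 0.92 (SE 0.12, adjusted p = 4.84e-07) with TRAIL+C3/C2, 0.59 (SE 0.12, adjusted p = 1.29e-04) with SN, 0.34 (SE 0.12, adjusted p = 0.0339) with TRAIL and 0.29 (SE 0.12, adjusted p = 0.0371) with C3/C2, the last turning to -0.01 with the array median as scaling, and that with TRAIL became 0.06 (adjusted p = 0.810) with spike-in scaling.

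The levels of CASP10-c, on the same transcripts, were 2.34, 2.40, 2.29 and 2.58 in NT, 1.92, 2.24, 2.29 and 2.29 with C3/C2 and 1.43, 1.24, 1.39 and 1.38 with SN. They were 2.61, 2.52, 2.67 and 2.67 with TRAIL, 1.94, 2.05, 1.98 and 1.91 with TRAIL+C3/C2 and 1.32, 1.59, 1.42 and 1.13 with TRAIL+SN. Both groups with SN lay lowest and apart from all others, and C3/C2 and TRAIL overlapped NT. CASP10-c fell 2.06-fold with SN, a log2 change of -1.04 (SE 0.09, adjusted p = 2.22e-09), and 2.05-fold with TRAIL+SN, a log2 change of -1.03 (SE 0.09, adjusted p = 2.22e-09). With spike-in scaling the fall with SN was under 2-fold (-0.97). With TRAIL+C3/C2 and C3/C2 its changes were -0.43 (SE 0.09, adjusted p = 2.85e-04) and -0.21 (SE 0.09, adjusted p = 0.0484). Against the mean of the other CASP10 probes, CASP10-c differed by -1.27 (SE 0.15, adjusted p = 4.64e-10) with SN, -1.04 (SE 0.15, adjusted p = 7.56e-08) with TRAIL+C3/C2 and -1.79 (SE 0.15, adjusted p = 4.06e-15) with TRAIL+SN. CASP10-b differed the other way, by 1.19 (SE 0.15, adjusted p = 2.80e-09) with SN and 1.51 (SE 0.15, adjusted p = 1.73e-12) with TRAIL+SN, and by 1.00 (SE 0.15, adjusted p = 1.74e-07) with TRAIL+C3/C2, which was below the threshold of 1 before rounding. Without NT replicate 4 the falls of CASP10-c were under 2-fold with SN (-0.98) and TRAIL+SN (-0.98), and without TRAIL+SN replicate 4 the latter was too (-0.96).

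On one array, the level of CASP10-b minus that of CASP10-c, set to a mean of 0 in NT, was 1.65, 1.82, 1.66 and 1.42 with SN and 2.37, 2.14, 2.00 and 2.29 with TRAIL+SN. It was 1.60, 1.53, 1.10 and 1.19 with TRAIL+C3/C2, 0.96, 0.52, 0.27 and 0.27 with C3/C2 and 0.11, 0.33, 0.01 and 0.02 with TRAIL. NT spread from -0.30 to 0.21, and only TRAIL overlapped it (exact permutation p = 0.0286 for each of the other treatments and 0.40 for TRAIL). As for CFLAR, these are the arrays of the diffSplice test, of which this is no independent check. The remaining tested probe, CASP10-a, had log2 changes of -0.35, -0.14, -0.10, 0.28 and 0.35 for C3/C2, for SN, for TRAIL and then for TRAIL+C3/C2 and TRAIL+SN. It passed the adjusted p, under 2-fold, with C3/C2 (adjusted p = 0.0472) and TRAIL+SN (adjusted p = 0.042, turning to -0.17 with spike-in scaling). Its correlation over the 24 arrays was 0.71 with CASP10-b and -0.28 with CASP10-c, and that of CASP10-b with CASP10-c was -0.67.

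**Figure D5:**
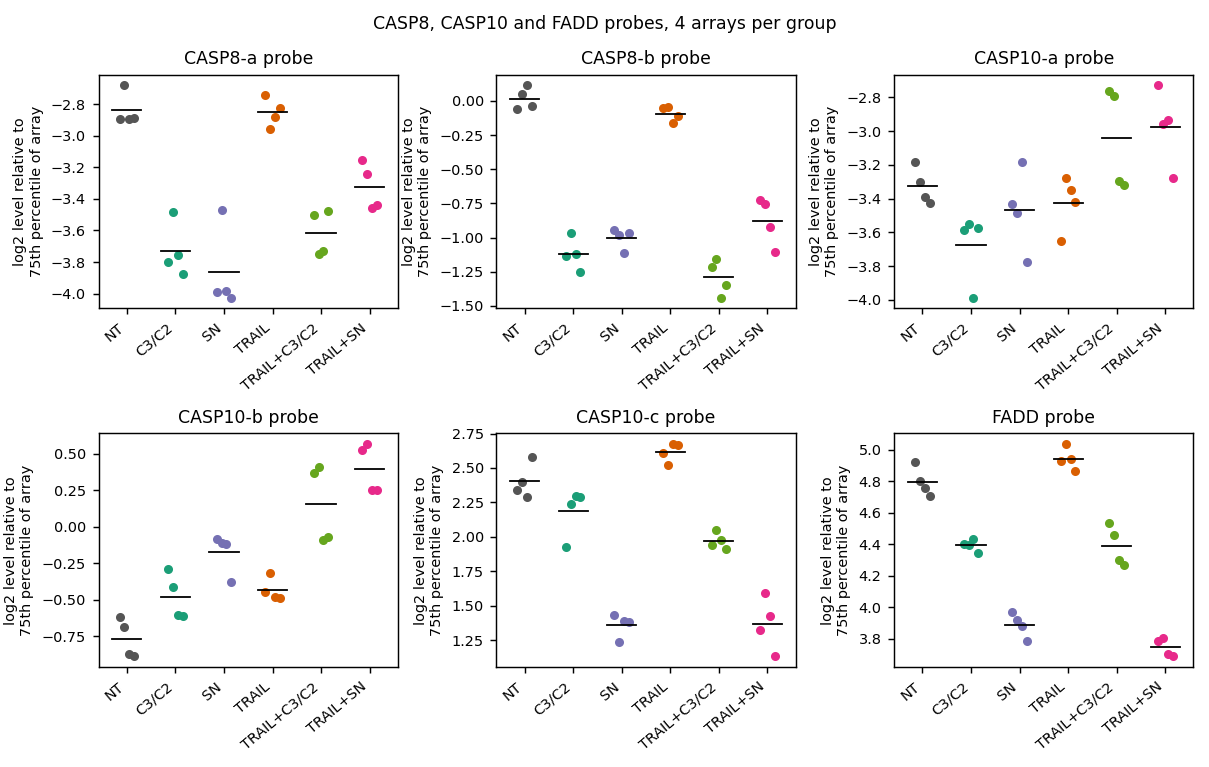
Level of each CASP8, tested CASP10 and FADD probe (vertical axis, log2 intensity minus that of the array's 75th percentile) in the 6 groups, with 1 point an array and a bar at the mean of 4 arrays. The axes differ between panels. CASP8-b has NT and TRAIL apart from the rest, CASP10-b and CASP10-c move in opposite directions with SN and TRAIL+SN, and the mean FADD level with SN lies between those of C3/C2 and TRAIL+SN.

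FADD, the adaptor that ties the caspases to the receptor, fell 2-fold with TRAIL+SN and less in the other groups with C3/C2 or SN. Its levels were 4.92, 4.80, 4.76 and 4.71 in NT, 4.40, 4.40, 4.43 and 4.34 with C3/C2 and 3.97, 3.92, 3.88 and 3.78 with SN. They were 4.93, 5.04, 4.94 and 4.87 with TRAIL, 4.53, 4.46, 4.30 and 4.27 with TRAIL+C3/C2 and 3.79, 3.81, 3.71 and 3.69 with TRAIL+SN. C3/C2 and TRAIL+C3/C2 overlapped each other below NT, and both groups with SN lay below these. FADD fell 2.07-fold with TRAIL+SN, a log2 change of -1.05 (SE 0.06, adjusted p = 4.62e-12), and had log2 changes of -0.91 (SE 0.06, adjusted p = 5.47e-11) with SN, -0.40 (SE 0.06, adjusted p = 1.12e-05) with C3/C2 and -0.41 (SE 0.06, adjusted p = 8.67e-06) with TRAIL+C3/C2. With the array median as scaling the change with SN reached 2-fold (-1.04), and with spike-in scaling that with TRAIL+C3/C2 did (-1.12). TRADD, the adaptor of the tumour necrosis factor receptor, stayed within a log2 change of -0.07 to 0.35. Its levels with TRAIL were 3.92, 4.02, 3.91 and 3.80 against 3.61, 3.60, 3.51 and 3.53 in NT, with no overlap and a log2 change of 0.35 (SE 0.06, adjusted p = 2.71e-04), which was 0.08 (adjusted p = 0.687) with spike-in scaling.

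RIPK1, the kinase that scaffolds NF-kB signalling and can also start cell death, was lower in every group with C3/C2 or SN, and never 2-fold. Its levels were 1.77, 1.90, 1.88 and 1.82 in NT, 1.34, 1.24, 1.16 and 1.25 with C3/C2, 1.29, 1.32, 1.15 and 1.06 with SN, 1.15, 1.19, 1.01 and 1.06 with TRAIL+C3/C2 and 1.43, 1.35, 1.23 and 1.10 with TRAIL+SN. The log2 changes were -0.59 (SE 0.07, adjusted p = 2.17e-07), -0.64 (SE 0.07, adjusted p = 6.46e-08), -0.74 (SE 0.07, adjusted p = 6.84e-09) and -0.56 (SE 0.07, adjusted p = 3.53e-07) in that order, and -0.12 (SE 0.07, adjusted p = 0.198) with TRAIL. With the array median or spike-in probes as scaling, that with TRAIL+C3/C2 was past 2-fold (-1.08 and -1.45), and with spike-in probes that with TRAIL+SN was too (-1.09). RIPK3-a had log2 changes of 0.36 to 0.71 over the treatments other than TRAIL (0.12), and the largest, with TRAIL+C3/C2, had an adjusted p of 5.99e-04 and was 0.00 with spike-in scaling. RIPK3-b passed the adjusted p with TRAIL+C3/C2 and with no other treatment, at 0.55 (SE 0.23, adjusted p = 0.039), and turned to -0.16 with spike-in scaling.

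TRAF2, the ubiquitin ligase adaptor of tumour necrosis factor receptors, was measured by 2 probes, neither of which was called. For TRAF2-b the levels were 4.40, 4.38, 4.36 and 4.28 in NT, 4.97, 4.97, 5.00 and 5.01 with TRAIL, 4.95, 4.92, 5.09 and 5.04 with TRAIL+C3/C2 and 4.78, 4.78, 4.87 and 4.89 with TRAIL+SN, with no overlap between NT and these. The log2 changes were 0.63 (SE 0.06, adjusted p = 1.12e-07), 0.64 (SE 0.06, adjusted p = 3.93e-09) and 0.47 (SE 0.06, adjusted p = 3.56e-07), under 2-fold, and with spike-in scaling that with TRAIL became 0.36 (adjusted p = 0.00774) and those of both co-treatments turned to -0.07 and -0.05. With C3/C2 and SN they were 0.20 (SE 0.06, adjusted p = 0.00536) and 0.12 (SE 0.06, adjusted p = 0.0697), the former turning to -0.10 with the array median. TRAF2-a had log2 changes of 0.48 (SE 0.08, adjusted p = 2.11e-04) with TRAIL and 0.45 (SE 0.08, adjusted p = 8.18e-05) with TRAIL+C3/C2, turning to -0.26 with spike-in scaling, and 0.11 (SE 0.08, adjusted p = 0.251) with TRAIL+SN. The change with TRAIL became 0.21 (adjusted p = 0.243) with spike-in scaling. CYLD, which removes ubiquitin chains from RIPK1 and TRAF2, was measured by 1 probe with log2 changes of 0.58 (SE 0.13, adjusted p = 6.75e-04) with C3/C2, 0.79 (SE 0.13, adjusted p = 2.04e-05) with SN and 0.85 (SE 0.13, adjusted p = 7.00e-06) with TRAIL+SN. Its levels were -3.42, -2.82, -2.75 and -3.29 in NT, -2.40, -2.23, -2.24 and -2.25 with SN and -2.06, -2.35, -2.19 and -2.26 with TRAIL+SN, the last 2 groups being above every NT array. With TRAIL+C3/C2 the change was 0.47 (SE 0.13, adjusted p = 0.00341) and turned to -0.24 with spike-in scaling. The rise of 0.85 with TRAIL+SN also became smaller under spike-in scaling, which moved all probes of that group by -0.52. With TRAIL the change of CYLD was 0.21 (SE 0.13, adjusted p = 0.237).

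The supernatant and its main acids were also set against each other. SN lay on slide 3 and C3/C2 on slides 1 and 2, so between these the slide and the treatment cannot be told apart. Between SN and C3/C2, 0 of 17 probes reached 2-fold with an adjusted p under 0.05 (5.49% of all probes), and between TRAIL+SN and TRAIL+C3/C2, which shared a slide, 0 did (3.48% of all probes). With no minimum fold, 7 probes passed the adjusted p in each comparison, where 45.5% and 37.1% of all probes did. At an unadjusted p under 0.05 and any fold there were 8 and 11, and 7 and 8 in the exact permutation test. Shares of all probes were not computed for these. The difference that came nearest was that of CASP10-c, -0.83 (SE 0.09, adjusted p = 4.14e-07) between SN and C3/C2 (95% interval -1.02 to -0.64) and -0.60 (SE 0.09, adjusted p = 3.25e-05) between the co-treatments. CFLAR-a was higher with SN than with C3/C2 by 0.70 (SE 0.14, adjusted p = 3.05e-04), and CFLAR-b by 0.47 (SE 0.13, adjusted p = 0.00661). For CFLAR-d the difference was 0.27 (SE 0.13, adjusted p = 0.0919), with a 95% interval of 0.00 to 0.54. Between TRAIL+SN and TRAIL+C3/C2, on the same slide, the limma differences were 0.52 for CFLAR-a (SE 0.14, adjusted p = 0.00516) and 0.04 for CFLAR-b (SE 0.13, adjusted p = 0.825). For CFLAR-d it was 0.29 there (SE 0.13, adjusted p = 0.0839). FADD was lower with SN than with C3/C2, at a log2 difference of -0.51 (SE 0.06, adjusted p = 1.97e-06), and lower with TRAIL+SN than with TRAIL+C3/C2, at -0.64 (SE 0.06, adjusted p = 1.45e-07). For the CASP8 probes the differences between SN and C3/C2 were -0.14 and 0.12, with 95% intervals of -0.38 to 0.10 and -0.05 to 0.29.

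Against TRAIL alone, TRAIL+C3/C2 lowered 4 of 17 probes and TRAIL+SN 5 (21% and 22.4% of all probes were called in either direction). CFLAR-a, CFLAR-b and CFLAR-d were among them in both comparisons, at 3.14-, 2.77- and 2.96-fold for TRAIL+C3/C2 and 2.19-, 2.69- and 2.42-fold for TRAIL+SN. CASP8-b was the other probe with TRAIL+C3/C2, -1.20 (SE 0.08, adjusted p = 4.34e-11), and CASP10-c and FADD those with TRAIL+SN, -1.25 (SE 0.09, adjusted p = 1.27e-10) and -1.20 (SE 0.06, adjusted p = 6.45e-13). With no minimum fold, 14 and 16 probes passed the adjusted p, where 65.8% and 67.5% of all probes did. Both comparisons crossed slides. With the array median as scaling, 8 probes were called for TRAIL+C3/C2, and with spike-in scaling 7.

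The interaction says how far a co-treatment lay from what its agents gave when their separate log2 changes were added. For TRAIL and C3/C2 it was called at 0 of 17 probes (0.608% of all probes), with 0 past the adjusted p (2.43% of all probes) and 4 at an unadjusted p under 0.05. The share of all probes at the last threshold was not computed. For CFLAR-a the co-treatment differed from the sum by 0.01 (95% interval -0.39 to 0.42, adjusted p = 0.989), for CFLAR-b by 0.35 (95% interval -0.04 to 0.74, adjusted p = 0.402) and for CASP8-b by -0.06 (SE 0.12, adjusted p = 0.866). For TRAIL and SN it was also called at 0 of 17 (2.98% of all probes), with 7 past the adjusted p, all under 2-fold, where 21.6% of all probes passed it. They were CASP10-a, CASP8-a and CFLAR-c, above the sum by 0.59, 0.56 and 0.56, and TRADD, FADD and both TRAF2 probes, below it.

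Other genes of the pathway were taken from lists. These held death receptors, ubiquitin ligases and deubiquitinases of the complexes with their adaptors, kinases downstream of RIPK1, and caspase-8 substrates and executioners. The brightest probe of a gene, on average over the arrays, was taken for it. Of 38 names listed, 36 were tested. TRAF1 did not pass the filter and OTULIN is not a name on the array. Of all 20700 genes tested in this way, 16.3% were called higher and 7.93% lower with TRAIL+C3/C2 and 16.1% and 10.1% with TRAIL+SN. Among the 6 death receptors, 2 were called higher and 0 lower with TRAIL+C3/C2 and 3 and 0 with TRAIL+SN. TNFRSF10B, a receptor of TRAIL, rose by 1.61 (SE 0.10, adjusted p = 1.12e-11) and 2.47 (SE 0.10, adjusted p = 1.03e-14) on the log2 scale, and TNFRSF25, or death receptor 3, by 1.90 (SE 0.11, adjusted p = 1.82e-12) and 2.27 (SE 0.11, adjusted p = 8.82e-14). Among 14 ubiquitin ligases, deubiquitinases and their adaptors, 3 were called higher and 0 lower with either co-treatment, namely TNFAIP3, BIRC3 and the adaptor TNIP1. The ubiquitin-editing enzyme TNFAIP3 rose by 5.22 and 5.54 and the ubiquitin ligase BIRC3 by 5.02 and 5.62 on the log2 scale (adjusted p of 2.73e-18 or less for each). Of 11 kinases and their subunits, 0 were called higher with either co-treatment, 2 lower with TRAIL+C3/C2 and 0 lower with TRAIL+SN. MAP3K5, the kinase ASK1, fell by 1.11 with TRAIL+C3/C2 and MLKL, the effector of necroptosis, by 1.05, with adjusted p of 6.83e-12 and 3.24e-13, while with TRAIL+SN the largest changes were 0.77 for CHUK and -0.75 for MAP3K5, under 2-fold. Of 5 substrates and executioners, 0 were called with TRAIL+C3/C2 and 1 lower with TRAIL+SN, namely CASP6 (-1.20, SE 0.08, adjusted p = 2.31e-11), which had a log2 change of -0.72 with TRAIL+C3/C2. The median log2 change of the 36 genes was 0.02 and 0.15 for these co-treatments in turn, beside 0.10 and 0.04 over the 20700 genes tested.

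For 4 member probes the named genes with the most similar pattern were sought among all probes that passed the filter, by Pearson correlation of levels over the 24 arrays. CFLAR-d was most like GBP3 (0.99), STAT6 (0.98) and HMGA1P4 (0.98). CASP8-b was most like CEP192, TAMM41 and LRP8 (0.98 each), and CASP10-c like DYRK1B (0.96), RNPC3 (0.96) and PAXIP1 (0.95). CFLAR-c was most like FLJ13773 (0.98) and GSG1 (0.94). The arrays share groups and slides, so these values describe a pattern over groups.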

How the data were processed

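RNA of 24 HT29 samples, 4 in each of 6 groups taken from the sample labels, was hybridised to one-colour Agilent arrays. The deposited scanner files hold background-subtracted intensity values per spot that the authors extracted with Agilent Feature Extraction 10.7.3.1 (per the file headers). A deposited matrix holds the same intensity values divided by the median of each array and was used as an alternative, as were the raw mean and local background intensities. Its 24 flag columns were not used.

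The log2 intensity minus the 75th percentile of each array was tested for 27953 of 50599 probes, those that 1 or more groups measured well above background on each of 4 arrays. Outlier spots were left out. A single limma fit (R 4.3.3, limma 3.58.1, statmod 1.5.0, with data.table in version 1.17.8) over 6 groups left 18 residual degrees of freedom, with Benjamini-Hochberg adjustment per comparison. Differences between probes of one name were tested with diffSplice. Exact two-sided permutation tests compared 4 arrays with 4. The procedures were tested on simulated data, and figures were drawn with matplotlib 3.10.9. The number of arrays limits the precision (median standard error of a log2 change against NT, 0.11). Scaling, normalization, background correction, filters, fits, slide and replicate blocks and left-out arrays were varied.

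All probes of the 9 genes are named, with the pathway genes of largest change in the co-treatments and the 3 genes most like each of 4 probes, except for a few items that are not reported here. The members and lists were chosen with earlier results of these data known. Of 18 probe accessions, 17 matched RefSeq names (GRCh38.p14 annotation, names only).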

Additional observations from a re-analysis of the deposited data

Results flagged for a closer look

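Of 102 sets of 4 arrays (17 probes in 6 groups), 7 held an array far from the other 3, where chance gives about 1 in 20. CASP10-a was at -3.99 in C3/C2 replicate 3, with the others at -3.58 to -3.55. CASP10-b was at -0.38 in SN replicate 4, with the others at -0.12 to -0.08, and CASP10-c at 1.92 in C3/C2 replicate 1, with the others at 2.24 to 2.29. CASP8-a was at -2.68 in NT replicate 2, above others at -2.89, and at -3.47 in SN replicate 2, above others at -4.03 to -3.98. CFLAR-c was at 0.57 in TRAIL replicate 4, with the others at 0.22 to 0.26, and CYLD at -2.40 in SN replicate 1, with the others at -2.25 to -2.23.

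Of 34 interactions, 7 passed the adjusted p of the limma fit, all of TRAIL with SN and none 2-fold. At these probes TRAIL+SN lay away from the sum of the separate log2 changes. Over all probes 21.6% passed for TRAIL with SN and 2.43% for TRAIL with C3/C2. The interactions were 0.59 for CASP10-a (SE 0.21, adjusted p = 0.0493), 0.56 for CASP8-a (SE 0.16, adjusted p = 0.0181) and 0.56 for CFLAR-c (SE 0.15, adjusted p = 0.0118). They were -0.51 for TRADD (SE 0.09, adjusted p = 4.45e-04), -0.29 for FADD (SE 0.09, adjusted p = 0.0259), -0.37 for TRAF2-a (SE 0.12, adjusted p = 0.0316) and -0.28 for TRAF2-b (SE 0.08, adjusted p = 0.0207). SN and TRAIL shared slide 3 and TRAIL+SN lay on slide 4, so the slide's part cannot be told apart. Interactions of single probes were not computed under other scalings. Spike-in scaling moved all probes against NT unequally, by 0.07 for SN, -0.27 for TRAIL and -0.52 for TRAIL+SN.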

How the results depend on the processing

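No called probe changed sign under any alternative. Without a minimum fold, counts higher and lower became 5 and 9 for C3/C2 and 3 and 8 for SN, with 6 higher for TRAIL, and for TRAIL+C3/C2 and TRAIL+SN they became 7 and 8 and 6 and 8. Counts in either direction became 7 between SN and C3/C2, 7 between the co-treatments, 14 and 16 for TRAIL+C3/C2 and TRAIL+SN against TRAIL (45.5%, 37.1%, 65.8% and 67.5% of all probes) and 7 for the interaction of TRAIL and SN, and the probes that differed from the others of their gene 5 for C3/C2 and for SN, then 8 and 9 for TRAIL+C3/C2 and TRAIL+SN. With 1 probe per gene, lower counts were 1 with C3/C2, 2 with SN and 1 with TRAIL+C3/C2, the higher count with TRAIL+SN was 0, and counts against TRAIL were 1 and 2, as fewer probes were counted. With spike-in scaling, lower counts were 2 for SN and 8 for both co-treatments, the higher count with TRAIL+SN was 0, and TRAIL+C3/C2 against TRAIL gave 7. This scaling moved the median of all probes against NT by -0.18 for C3/C2, 0.07 for SN and -0.27 for TRAIL, and by -0.71 and -0.52 for TRAIL+C3/C2 and TRAIL+SN. Both the array median and the authors' table gave 0 probes higher and 5 lower for TRAIL+SN, and 8 differed between TRAIL+C3/C2 and TRAIL. The array median moved all probes by -0.30, -0.13, 0.10, -0.35 and -0.19 in the same order. With normexp, 3 were lower with SN and 2 with TRAIL+C3/C2. The cause of these shifts was not tested. Leaving out CFLAR-c, an alternative chosen after seeing the data, gave 0 probes that differed from the others of their gene with C3/C2 and 1 with TRAIL+C3/C2.

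With each array left out in turn, lower counts were 3 to 6 with SN (3 without SN replicate 3) and 2 to 3 with TRAIL+SN (2 without NT replicate 4 or TRAIL+SN replicate 4), the higher count with TRAIL+C3/C2 was 0 to 1 (1 without TRAIL+C3/C2 replicate 3), and the probes that differed from the others of their gene with TRAIL+C3/C2 were 1 to 3 (1 without NT replicate 4, and 1 when replicate 1 or 2 of TRAIL+C3/C2 was missing). The other counts did not vary. The falls with SN were under 2-fold for CASP8-a without NT replicate 2 (-0.97) or SN replicates 1 (-0.99), 3 (-0.99) or 4 (-0.97), and for CASP8-b without NT replicate 3 (-0.98) or SN replicate 3 (-0.98). Same-numbered arrays had correlated deviations above 0.1 in 52 of 60 pairs (lowest 0.05), and 23 of 24 arrays correlated best with their own number, which is a hint from the data and not from the design. With the number as a replicate block, counts higher and lower were 0 and 4, 0 and 5, 0 and 0, 0 and 4, and 1 and 3 for the 5 treatments in the order above, the same as without it. The slide as a fixed block and slide 2 alone were run for C3/C2 only, and probe differences with 1 probe per gene were not run.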
